A study of Mus musculus with 8 samples.

Results

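The 9 genes described here encode cytokines, or chains of cytokines and of a cytokine receptor, by which myeloid cells instruct T and NK cells: Il6, Il10, Il12a, Il12b, Il15, Il15ra, Il23a, Il27 and Ebi3. They were taken by symbol from the 32285 genes in the files, and all 9 were present. Each was followed in kept cells (500 to 6000 detected genes and under 10% mitochondrial UMIs, a UMI being 1 counted mRNA molecule) of tumors grown from 3 lines of E0771, a mouse mammary carcinoma line. The lines were parental E0771 (naive, in the labels) with 2 mice, E0771-Res1 with 3 mice and E0771-Res2 with 3 mice. The study established each resistant line from an E0771 tumor that had relapsed after paclitaxel with anti-PD-1, so each stands for 1 derived line, and the tumors sampled here grew for 18 days in the mammary fat pad. CD45+ cells, that is leukocytes, were sorted from each tumor, tagged by mouse, pooled and sequenced from the 3' end of their mRNA. Another parental tumor was not analysed here.

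These genes belong to a small number of families. IL-12 pairs the chain from Il12a (p35) with the p40 chain from Il12b, and IL-23 pairs the chain from Il23a (p19) with the same p40. Ebi3 encodes the partner of the Il27 product (p28) in IL-27 and has also been described with p35 as IL-35. IL-15 is held on the cell surface by the receptor chain from Il15ra and shown from there to T and NK cells, while IL-6 and IL-10 act as secreted homodimers or monomers through receptors that signal by JAK kinases and STAT3. In tumors, migratory dendritic cells are known as producers of IL-12, and regulatory T cells as producers of IL-10 and of Ebi3.

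The 8 libraries held 5036667 to 18894504 UMIs each, and 10605 of 11430 deposited cells were kept. Median depth per kept cell was 7631 to 8160 UMIs in parental and E0771-Res1 mice and 5589 to 7001 in E0771-Res2 mice, so shares of positive cells are also given after each cell was thinned to 2000 UMIs. No barcode was shared between libraries. Cells were gated on marker genes that are not among the 9. There were 5305 monocytes, 2315 macrophages with C1qa of 10 or more UMIs, 160 Cd209a+ dendritic cells, 232 Ccr7+ dendritic cells, 21 Xcr1+ dendritic cells and 875 lymphoid cells, leaving 1166 other cells and 531 cells with markers of both lymphoid and myeloid cells. Markers outside the gating genes separated most gates, though not the Cd209a+ one in full. Ccl22 was at 505 UMIs per 1000000 (CPM) in Ccr7+ dendritic cells and at 41.7 or less in every other gate, and C1qb was at 6401 CPM in macrophages and at 456 in monocytes. In Cd209a+ dendritic cells Clec10a (381 CPM) and Cd7 (208 CPM) were above all other gates. Flt3 and H2-DMb2, at 39.3 and 134 CPM there, were higher in Ccr7+ dendritic cells (140 and 188), and Klrd1 (583) was higher in lymphoid cells (774). Of the monocyte markers, Ccr2 and Ifitm6 were at 506 and 454 CPM against 433 and 332 in monocytes. Fn1 and F13a1 were lower than in monocytes, at 110 and 68.1 CPM against 172 and 136. In the Xcr1+ gate Wdfy4 (425 CPM, 38.6 in monocytes) and Irf8 (2640 and 230) were high and Cadm1 (8.26 and 7.95) was not; its few cells entered no test. The summed level of 4 tumor-cell markers was 5.18 to 8.74 CPM in parental and E0771-Res1 mice and 10.2 to 11.3 CPM in E0771-Res2 mice, with none of the 4 at 0, and its part in the differences between lines was not tested.

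The genes are protein coding and lie apart in the mouse genome (GRCm38, GENCODE M21). On the plus strand are Il10 at chr1:131019845-131024974, Il15ra at chr2:11705290-11734317, Il12a at chr3:68690644-68698547, Il6 at chr5:30013114-30019981, Il12b at chr11:44400063-44414033 and Ebi3 at chr17:55952640-55957022. Il27 at chr7:126589010-126594941, Il15 at chr8:82331632-82403222 and Il23a at chr10:128296139-128298752 are on the minus strand. RefSeq promoter windows (GRCm38.p6) were at hand for 5 of the 9, not for Il10, Il15, Il23a and Il27. The 250 bases before the start are printed here for Il12b and Il15ra, since these are the members that stood out in Ccr7+ dendritic cells, and for Il6, which did not. All are on the plus strand. Capitals mark matches, on either strand, to 4 motifs: a loose NF-kappaB motif (GGG, any 5 bases, CC), AP-1 (TGANTCA), an interferon-response motif (GAAA, any 2 bases, GAAA) and the TATA box (TATANAA).
Il12b, chr11:44399813-44400062: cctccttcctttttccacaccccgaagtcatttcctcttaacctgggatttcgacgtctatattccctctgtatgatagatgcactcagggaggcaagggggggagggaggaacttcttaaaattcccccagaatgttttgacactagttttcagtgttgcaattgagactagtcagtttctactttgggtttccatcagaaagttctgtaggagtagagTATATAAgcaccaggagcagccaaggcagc
Il15ra, upstream start, chr2:11705043-11705292: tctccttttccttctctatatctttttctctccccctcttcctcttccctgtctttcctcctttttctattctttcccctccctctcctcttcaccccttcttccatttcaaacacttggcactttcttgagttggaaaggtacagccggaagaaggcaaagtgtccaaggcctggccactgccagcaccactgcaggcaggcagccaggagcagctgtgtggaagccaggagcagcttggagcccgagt
Il15ra, downstream start, chr2:11705462-11705711: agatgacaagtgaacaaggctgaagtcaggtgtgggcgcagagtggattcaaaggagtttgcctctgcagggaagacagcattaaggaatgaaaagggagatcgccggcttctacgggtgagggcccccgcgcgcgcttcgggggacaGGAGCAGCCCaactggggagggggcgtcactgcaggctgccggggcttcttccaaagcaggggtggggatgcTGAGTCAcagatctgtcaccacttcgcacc
Il6, chr5:30012864-30013113: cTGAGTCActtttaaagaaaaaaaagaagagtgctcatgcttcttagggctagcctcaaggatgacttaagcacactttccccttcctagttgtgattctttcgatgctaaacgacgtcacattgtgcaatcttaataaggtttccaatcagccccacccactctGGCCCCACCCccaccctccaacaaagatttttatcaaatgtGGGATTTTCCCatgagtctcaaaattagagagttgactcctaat

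The Il12b window held a TATA match 30 bases before the start and none of the other motifs. Of the Il15ra windows the upstream one held no match, and the downstream one held an AP-1 match 30 bases before the start and an NF-kappaB match at 102 bases. Il6 held an AP-1 match at 249 bases and overlapping NF-kappaB matches at 44 and 43 bases, besides 1 at 85. Among 32851 RefSeq windows of the same length, 45.8% held the NF-kappaB motif, 6.75% AP-1, 2.98% the interferon-response motif and 10.4% the TATA box, so the NF-kappaB motif in particular sets few windows apart. These matches describe letters only.

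In kept cells the 9 genes gave 14551 UMIs, which is 0.0220% of the UMIs of the genes used. Monocytes, with 43.9% of all UMIs, held 61.2% of the Il27, 60.8% of the Il15, 56.9% of the Il15ra and 70.2% of the Il6 UMIs. Il10 and Ebi3 were spread over monocytes (41.8% and 40.1%) and macrophages (36.8% and 37.5%). Il12b was placed elsewhere: the 232 Ccr7+ dendritic cells, 2.19% of kept cells, held 61.1% of its UMIs. Il12a and Il23a were scarce, with 24 and 91 UMIs in all.

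**Figure D1:**
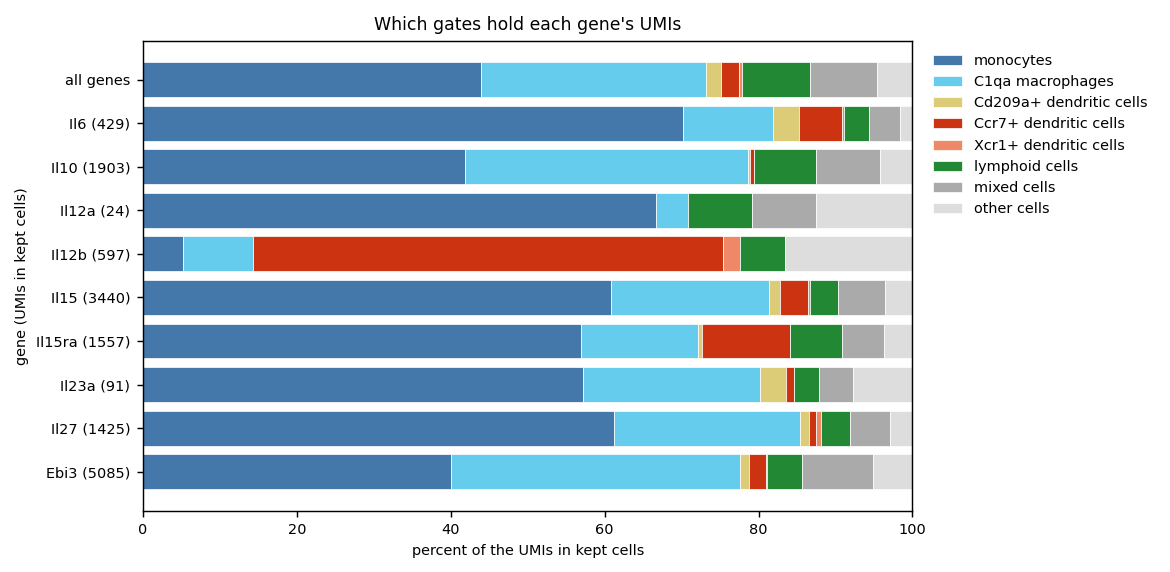
Each bar splits the UMIs of 1 gene in kept cells (number in parentheses) among the gates, in percent, with the UMIs of all genes in the top bar. Il12b is the bar dominated by Ccr7+ dendritic cells (61.1%), and monocytes hold most of Il6, Il15, Il15ra and Il27.

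The gates were compared with edgeR's quasi-likelihood test on UMIs summed per mouse and gate, with mouse as a block and p-values adjusted by Benjamini-Hochberg across every gene in the fit. Between gates a large share of all genes differed, which is the background for these counts. In Ccr7+ against Cd209a+ dendritic cells (6 mice with at least 10 cells in both), 3 of the 4 members tested passed at an adjusted p of 0.05, all higher in Ccr7+ cells, where 50.6% of all genes tested passed. In Cd209a+ dendritic cells against monocytes (8 mice), 5 of 6 passed, all lower, with a background of 21.9%. In macrophages against monocytes, 7 of 8 passed, 3 higher and 4 lower, with a background of 53.6%. In lymphoid cells against monocytes, 6 of 7 passed, 1 higher and 5 lower, with a background of 64.7%. The members left untested had too few UMIs for the filter on low counts, so these counts are not over the whole list. In the dendritic comparison Il15ra and Il12b passed that filter only through the Ccr7+ gate, so their direction was fixed once they were tested. Against monocytes Il12b likewise passed it only through macrophages or lymphoid cells, not through monocytes. Il10 passed it only through monocytes in the comparison of Cd209a+ dendritic cells with them.

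**Figure D2:**
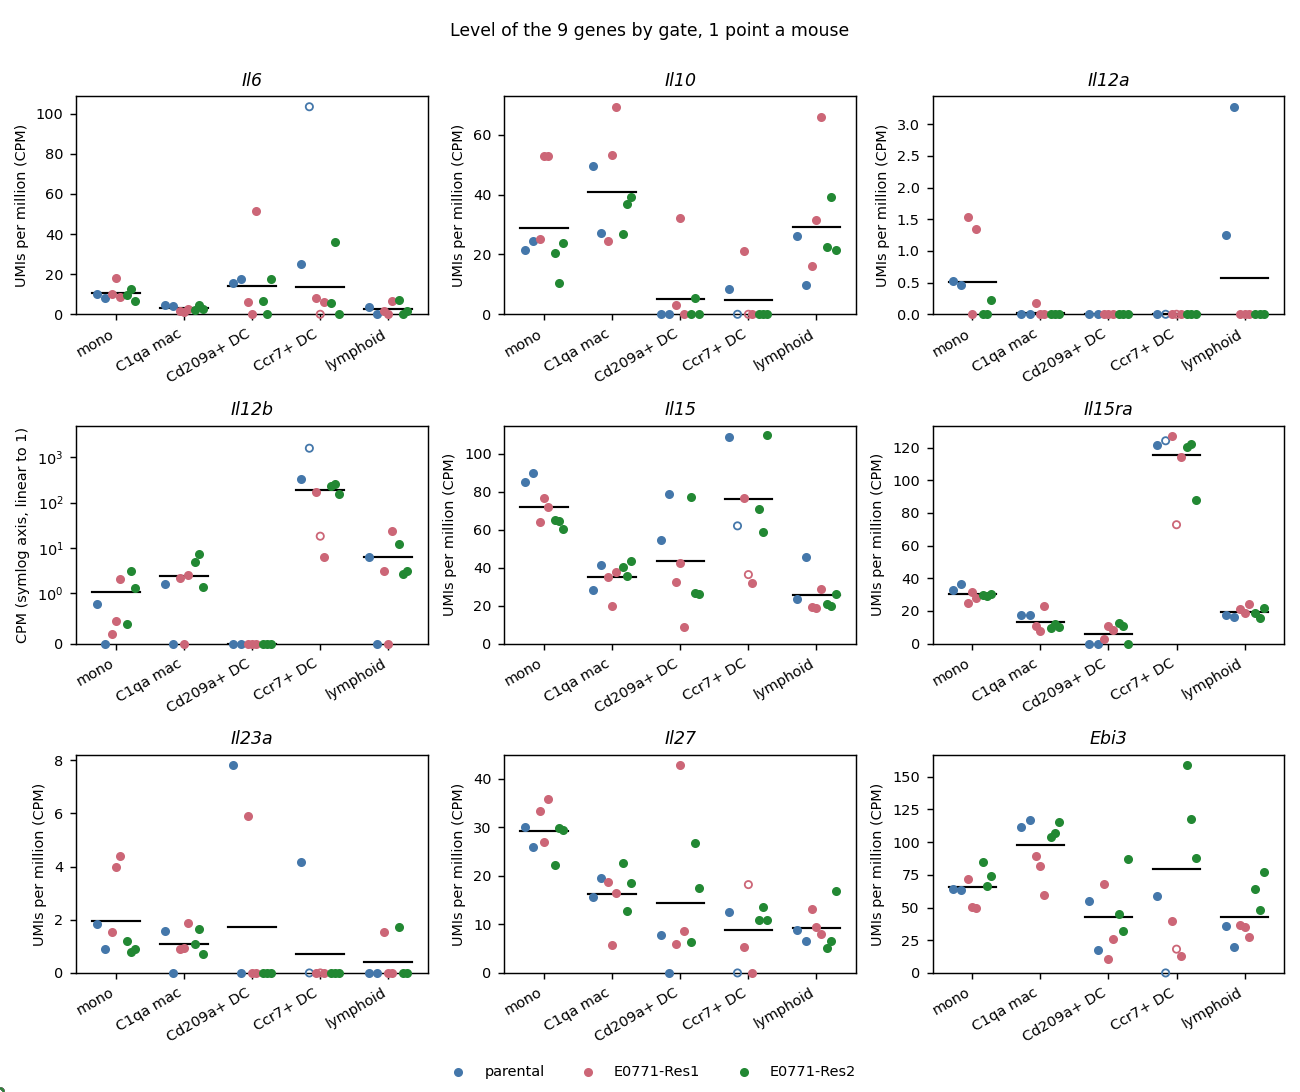
Level of each gene in CPM by gate, 1 point a mouse, coloured by line; lines mark the mean over mice with at least 10 cells, and open points are mice with fewer. The Il12b axis is symmetric-log, linear up to 1 CPM. Il12b and Il15ra stand highest in Ccr7+ dendritic cells, and Il12b is at 0 in every mouse in Cd209a+ dendritic cells.

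Il12b, the p40 chain, ranged in Ccr7+ dendritic cells from 6.36 through a median of 205 to 331 CPM over the 6 mice with at least 10 such cells. In Cd209a+ dendritic cells it was at 0 of 160 cells in all 8 mice, which allows a share of up to 1.88% of cells with a UMI (3 counts of the total) and sets no limit on cells that express the gene. The gates therefore did not overlap, but the lowest Ccr7+ mouse rested on 1 UMI in 20 cells. A count of 0 in 11 to 39 Cd209a+ cells a mouse does not exclude that level. The level over all Ccr7+ cells (235 CPM, exact Poisson interval 211 to 260, counting error only) was at least 97.7-fold higher than 3 counts over the Cd209a+ gate would be. Its adjusted p of 1.07e-08 in the edgeR test adds no support for the direction, which was fixed once the gene was tested. Of the 232 Ccr7+ cells, 45 (19.4%, Clopper-Pearson interval 14.5 to 25.1%) had a UMI, and after thinning 14.6% did. Lymphoid cells, which should lack the gene, had it in 1.49% of cells and in 0.605% after thinning, with median depths of 6879 UMIs there and 7903 in Ccr7+ cells.

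The Il12b message was uneven among cells. Over all kept cells 99 were positive, and 10 cells held 48.7% of the UMIs. The same share was 1.75% for Ebi3 and 2.62% for Il15, but these had 3264 and 2167 positive cells, so the shares are not on an equal footing. For the scarce Il12a and Il23a, with 20 and 80 positive cells, it was 58.3% and 23.1%. The highest Ccr7+ cell had 48 UMIs of Il12b. The cell with the most, 69 UMIs, was among the other cells of E0771-Res1 replicate 3; it had 4 UMIs of Ccr7, 22 of Ccl22 and 132 of H2-Ab1 but no Fscn1, which the gate asked for. E0771-Res1 replicate 3 also had the lowest Ccr7+ level, with 1 UMI of Il12b in 20 cells. Of the 54 positive cells outside the Ccr7+ gate, 26 had a UMI of Ccr7, Fscn1, Ccl22 or Cacnb3, where 1318 of all 10373 cells outside it did.

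Macrophages and lymphoid cells were both above monocytes for Il12b, at low counts. The level was 2.78 CPM (54 UMIs) in macrophages, 6.57 CPM (35 UMIs) in lymphoid cells and 1.04 CPM (31 UMIs) in monocytes. The log2 fold change against monocytes was 1.30 ± 0.42 (SE) in macrophages, higher in 6 of 8 mice, with an adjusted p of 0.0157 that rose to 0.0598 with DESeq2. In lymphoid cells it was 2.20 ± 0.52, higher in 5 of 8 mice, with an adjusted p of 0.00106. A few cells carried these sums: 3 macrophages had 7, 11 and 13 UMIs, and 2 lymphoid cells had 14 and 7. Those 2 lymphoid cells also had 23 and 20 UMIs of Ccr7. The monocyte with most had 12, together with 56 UMIs of Ccr7. No mouse exceeded 3.17 CPM in monocytes, and Il12b passed the filter on low counts only through macrophages or lymphoid cells. The adjusted p-values above therefore add no support for the direction.

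Neither p40 partner went with it in the Ccr7+ gate. Il12a, the p35 chain, had 16 of its 24 UMIs in monocytes, 1 in macrophages and none in the 3 dendritic gates, and 0 of 232 Ccr7+ cells allows a share of up to 1.29% with a UMI. In 1 cell Il12a and Il12b were found together. It was the cell of E0771-Res1 replicate 3 with 69 UMIs of Il12b. That cell was among the other cells and lacked only Fscn1 for the Ccr7+ gate. Il23a, the p19 chain, had 52 UMIs in monocytes (0.867% of cells), 21 in macrophages and 1 in Ccr7+ dendritic cells, and 1 cell, a macrophage, had it together with Il12b. Its log2 difference between macrophages and monocytes, -0.73 ± 0.38, did not pass (adjusted p 0.111). At this depth the Ccr7+ cells, which held most of the p40 message, thus gave 0 UMIs of p35 and 1 of p19.

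Il15ra, which presents IL-15, had the narrowest relative spread of the members in Ccr7+ dendritic cells: 87.9 CPM in the lowest of 6 mice, a median of 121 and 127 in the highest. In Cd209a+ dendritic cells it ran from 0 through 5.77 to 12.9 CPM over 8 mice, and the gates did not overlap. The fold change was 21.6 (log2 4.43 ± 0.38, adjusted p 2.35e-08 in the edgeR test). Il15ra passed the filter on low counts only through the Ccr7+ gate, so this p adds no support for the direction. A UMI was found in 40.5% of Ccr7+ cells and in 4.38% of Cd209a+ cells, or in 18.6% and 0.625% after thinning. Monocytes came next, with 24.6 to 36.4 CPM and a median of 29.9, above Cd209a+ dendritic cells, macrophages and lymphoid cells in 8 of 8 mice each. Relative to monocytes Il15ra was 5.56-fold lower in Cd209a+ dendritic cells (adjusted p 8.86e-06), 2.55-fold lower in macrophages (1.42e-07) and 1.95-fold lower in lymphoid cells (5.29e-06). The share of positive macrophages (8.51%, and 2.21% after thinning) was below that of lymphoid cells (9.37% and 2.54%), where Foxp3+ cells had it in 14.1% and other Cd3+ cells in 7.74%.

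Il15 itself followed a flatter pattern. Monocytes had 60.6 to 90.1 CPM with a median of 68.5, and Ccr7+ dendritic cells 31.8 to 110 with a median of 73.9, so these overlapped widely. Levels in the other gates were lower, with medians of 37.6 CPM in Cd209a+ dendritic cells, 36.8 in macrophages and 22.3 in lymphoid cells, and the ranges of Cd209a+ dendritic cells and macrophages overlapped. The Ccr7+ cells exceeded the Cd209a+ cells 2.36-fold (log2 1.24 ± 0.29, adjusted p 0.00159), in 5 of 6 mice. Against monocytes the differences were 2.12-fold lower in macrophages (adjusted p 1.71e-07, no overlap over 8 mice), 1.82-fold lower in Cd209a+ dendritic cells (0.00155) and 3.80-fold lower in lymphoid cells (1.58e-11). After thinning, 9.43% of monocytes, 9.73% of Ccr7+ cells, 5.41% of macrophages, 3.13% of Cd209a+ cells and 2.91% of lymphoid cells had a UMI of Il15, where the unthinned shares were 23.1%, 32.3%, 22.03%, 18.8% and 9.03%.

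**Figure D3:**
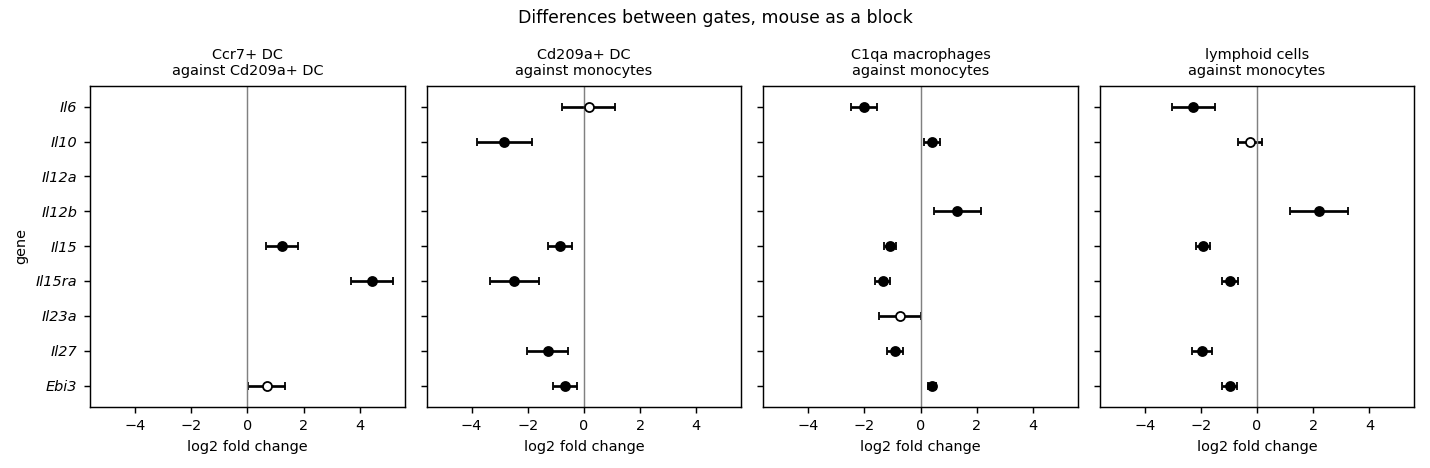
Log2 fold change of each tested member between gates with a nominal 95% interval taken from its SE under a normal curve, filled where the adjusted p was under 0.05. Such intervals run narrow with few mice: that of Ebi3 in Ccr7+ against Cd209a+ cells excludes 0 though Ebi3 did not pass. Il12b is left out of the panel of Ccr7+ against Cd209a+ dendritic cells because it was at 0 in the latter; Il15ra at 4.43 is the largest value drawn, and most members lie below 0 against monocytes.

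Il15 and Il15ra were also found in the same cells more often than their own frequencies give. In all kept cells 502 had both, where 226.8 would if the genes were independent, and in monocytes the numbers were 314 and 142.6. Cell depth alone raises such a count, and at 2000 UMIs a cell the numbers were 85 and 30.1 in all kept cells and 64 and 24.3 in monocytes. In Ccr7+ dendritic cells 45 of the 75 Il15-positive cells (60.0%) had Il15ra, beside 40.5% of all Ccr7+ cells, but after thinning the numbers were small, 6 and 4.09. These are counts of cells within pooled libraries and carry no test over mice.

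**Figure D4:**
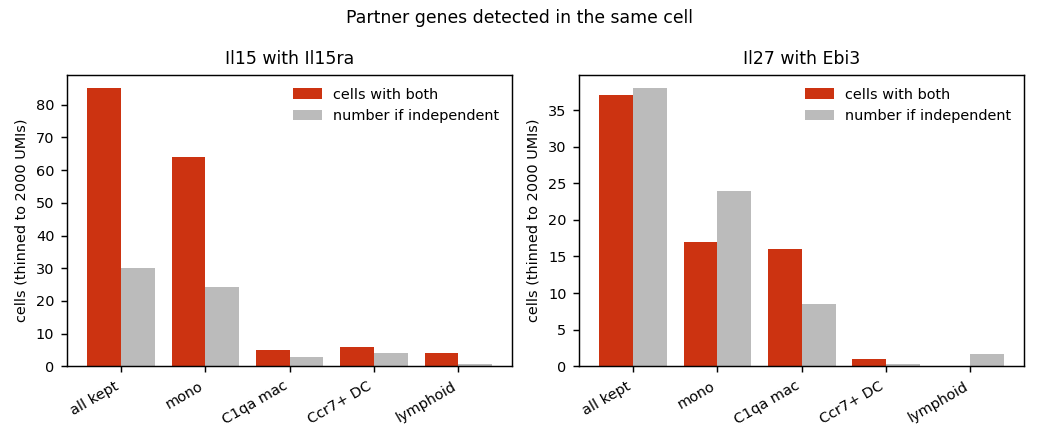
Number of cells with both genes of a pair (red) and the number if the genes were independent in that gate (grey), each cell thinned to 2000 UMIs. For Il15 with Il15ra the red bar is above the grey in all kept cells (85 against 30.1) and monocytes (64 against 24.3); for Il27 with Ebi3 the bars are near each other in all kept cells (37 against 38.0).

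Il27, the p28 chain, was higher in monocytes than in the 3 gates tested against them. It was at 22.3 to 35.9 CPM in monocytes, with a median of 29.6, and at 5.69 to 22.6 in macrophages, with a median of 17.5. Lymphoid cells, at 5.19 to 16.9 CPM, did not overlap with monocytes and were 3.92-fold lower (log2 -1.97 ± 0.18, adjusted p 3.85e-09). Macrophages were 1.87-fold lower, in 7 of 8 mice (adjusted p 3.62e-05), and Cd209a+ dendritic cells 2.45-fold lower, in 7 of 8 mice (adjusted p 0.00605, or 0.0699 without E0771-Res1 replicate 1). After thinning 4.51% of monocytes had a UMI, with 2.68% of macrophages and 2.66% of lymphoid cells, while Cd209a+ and Ccr7+ cells, at 0.625% and 1.33%, were below the lymphoid share. Unthinned, the shares were 11.3%, 10.3%, 4.11%, 6.25% and 5.603% in that order. In the Xcr1+ gate all 9 UMIs came from 1 mouse.

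Ebi3 was found in more cells than any of the others, 3264 of 10605. In macrophages it was at 59.3 to 117 CPM with a median of 105.5, and in monocytes at 49.4 to 85.1 with a median of 65.4. The ranges overlapped, but macrophages were higher in 8 of 8 mice, 1.33-fold (log2 0.41 ± 0.07, adjusted p 9.3e-05). Cd209a+ dendritic cells were 1.59-fold lower than monocytes (adjusted p 0.015; 0.0603 with DESeq2 and 0.0949 without the block on mouse), and lymphoid cells 1.97-fold lower (1.99e-06). Ccr7+ dendritic cells, with 12.7 to 159 CPM over 6 mice, were the most variable, and their difference from Cd209a+ cells did not pass (log2 0.68 ± 0.34, adjusted p 0.104). Lymphoid cells were not uniform for this gene. Of the 191 lymphoid cells with a UMI of Foxp3, the regulatory T cell factor, 37.2% (interval 30.3 to 44.4%) had Ebi3, against 16.4% (13.3 to 19.9%) of 517 other cells with a Cd3 gene and 5.23% (2.28 to 10.0%) of 153 cells with an NK marker alone, at median depths of 6155, 7094 and 7178 UMIs. These cells were pooled over mice and lines, and the intervals carry no test over mice. The mean share over all lymphoid cells was 25.4% in E0771-Res2, 13.9% in E0771-Res1 and 12.5% in parental mice. The part of the lines in the subgroup shares was not tested.

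At equal depth the chains of IL-27 were found together about as often as their separate frequencies give. Both Il27 and Ebi3 were seen in 344 cells, where independence gives 302.9, and after thinning in 37 cells, where it gives 38.0. Within monocytes the thinned numbers were 17 and 24.0, and within macrophages 16 and 8.50. Il12a and Ebi3, the pair named IL-35, were found together in 8 cells, where independence gives 6.16, and in 3 after thinning, where it gives 0.996.

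Il6, an inflammatory cytokine, was at 6.41 to 18.1 CPM in monocytes and at 0.949 to 4.71 in macrophages, with no overlap over 8 mice. Macrophages were 4.04-fold lower (log2 -2.02 ± 0.23, adjusted p 8.06e-07) and lymphoid cells 4.85-fold lower (adjusted p 3.02e-05). Shares of positive cells were 3.71% in monocytes, 1.51% in macrophages and 1.37% in lymphoid cells, and 1.496%, 0.26% and 0.605% after thinning. The macrophage share was thus slightly above the lymphoid one before thinning and below it after, on 6 and 5 thinned cells. Macrophage Il6 is therefore not read as standing above the lymphoid level. Cd209a+ dendritic cells had 15 UMIs and Ccr7+ dendritic cells 24, in 7.50% and 6.90% of their cells, and the difference between Cd209a+ cells and monocytes did not pass (log2 0.16 ± 0.49, adjusted p 0.866).

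Il10, which restrains myeloid and T cells, was nearly missing from dendritic cells. Cd209a+ dendritic cells had 5 UMIs, in 3 of 8 mice, and Ccr7+ dendritic cells 10 UMIs, in 2 of the 6 mice with at least 10 such cells. Monocytes ran from 10.6 through 24.2 to 53.0 CPM, and Cd209a+ dendritic cells were 7.15-fold lower (log2 -2.84 ± 0.50, adjusted p 7.97e-06). In this comparison Il10 passed the filter on low counts only through monocytes, so this p adds no support for the direction. Macrophages, at 24.5 to 69.4 CPM with a median of 38.0, were 1.32-fold above monocytes in 7 of 8 mice (log2 0.40 ± 0.15, adjusted p 0.0285). That call was lost without the block on mouse (0.307), with a C1qa threshold of 20 (0.0891) and without parental replicate 1 (0.0938), E0771-Res2 replicate 2 (0.0698) or E0771-Res2 replicate 3 (0.0708). The difference between lymphoid cells and monocytes did not pass (log2 -0.26 ± 0.22, adjusted p 0.302). Among lymphoid cells, pooled over mice and lines, 19.9% (14.5 to 26.3%) of Foxp3+ cells, 7.74% (5.58 to 10.4%) of the other Cd3+ cells and 3.27% (1.07 to 7.46%) of cells with an NK marker alone had a UMI. These intervals carry no test over mice.

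Between the tumor lines few members were called, as were few genes of any kind. At 2 or 3 mice a line, the lack of a call does not show that a member stayed the same. With the 3 lines in 1 edgeR fit, E0771-Res1 against parental gave 0 of 8 members past the threshold over all kept cells (background 0.0354% of genes, 2 members at an unadjusted p under 0.05), 0 of 5 in macrophages (0.121%, 1 unadjusted) and 0 of 7 in monocytes (0.0604%, 3 unadjusted), and DESeq2 gave 0 in each. E0771-Res2 against parental gave 0 of 8 over all kept cells (4.35%, 2 unadjusted, 0 with DESeq2), 0 of 5 in macrophages (1.87%, 1 unadjusted, 0 with DESeq2) and 1 of 7 in monocytes (6.21%). E0771-Res2 against E0771-Res1 gave 1 of 8 over all kept cells (4.2%), 0 of 5 in macrophages (2.64%, 1 unadjusted, 0 with DESeq2) and 1 of 7 in monocytes (5.44%). In Ccr7+ dendritic cells, with 1 parental mouse, 2 of E0771-Res1 and 3 of E0771-Res2, none of 4 members passed in any of the 3 comparisons (0.0693%, 0.0924% and 0%, in the order given above; 1 unadjusted and 0 with DESeq2 each). In Cd209a+ dendritic cells no member had the UMIs to be tested. Comparisons that share a line share its mice.

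The member called against parental tumors was Il15 in monocytes. It was at 84.9 and 90.1 CPM in the parental mice, at 64.0, 76.8 and 72.1 in E0771-Res1 and at 64.9, 64.5 and 60.6 in E0771-Res2. Both parental mice were thus above all others. The fall in E0771-Res2 was 0.48 ± 0.12 on the log2 scale, from 87.5 ± 3.64 to 63.4 ± 2.42 CPM (SD, n = 2 and 3; edgeR adjusted p 0.021), while E0771-Res1 against parental gave -0.30 ± 0.12 (adjusted p 0.404). Monocytes of E0771-Res2 were also shallower, with medians of 5153 to 6512 UMIs a cell against 7737 and 7825 in parental mice. After thinning, 10.4 to 10.9% of parental and 8.13 to 9.31% of E0771-Res2 monocytes were positive, without overlap. Gates were set on raw UMIs before thinning, so which cells counted as monocytes still depended on depth, and its part was not tested. The call was lost without parental replicate 1 (adjusted p 0.155), parental replicate 3 (0.162) or E0771-Res2 replicate 3 (0.0855), at log2 values of -0.53, -0.46 and -0.44. In macrophages the same comparison of Il15 gave a log2 of 0.26 ± 0.24 (adjusted p 0.668), and whether the cell types differ was not tested.

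Il10 in monocytes separated the resistant lines from each other. The mice of E0771-Res1 were at 25.2, 53.0 and 52.8 CPM, those of E0771-Res2 at 20.5, 10.6 and 23.9 and the parental ones at 21.6 and 24.6, so replicates 2 and 3 of E0771-Res1 stood above the rest. E0771-Res2 was lower than E0771-Res1 by a log2 of -1.20 ± 0.28 (adjusted p 0.0212; 0.0727 with DESeq2). It was lost without E0771-Res1 replicate 2 (0.0616), E0771-Res1 replicate 3 (0.0935), E0771-Res2 replicate 1 (0.0623) or E0771-Res2 replicate 2 (0.0527). The thinned shares of positive cells, 3.12 to 4.64% against 1.83 to 3.15%, overlapped. In macrophages the same comparison gave -0.37 ± 0.33 (adjusted p 0.646), with the highest levels again in those replicates of E0771-Res1, 53.1 and 69.4 CPM, and 24.5 in replicate 1.

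Ebi3 was higher in E0771-Res2 than in E0771-Res1 over all kept cells. The levels were 94.6, 78.1 and 90.8 CPM in E0771-Res2, 74.6, 57.2 and 47.8 in E0771-Res1 and 72.3 and 71.2 in parental mice, so the resistant lines did not overlap. The difference was 0.53 ± 0.13 on the log2 scale, 87.8 ± 8.66 against 59.9 ± 13.6 CPM (SD, n = 3 and 3; adjusted p 0.0394). Fewer cells of a type and less message per cell cannot be told apart in such a sum, and within gates the log2 differences were 0.49 ± 0.13 in macrophages (adjusted p 0.0601), 0.35 ± 0.13 in monocytes (0.147) and 1.93 ± 0.42 in Ccr7+ dendritic cells (0.113), none of which passed. Macrophages of E0771-Res1, at 89.3, 81.6 and 59.3 CPM, were below both parental (112 and 117) and E0771-Res2 mice (104, 107 and 116). In Ccr7+ dendritic cells the levels were 159, 118 and 87.9 CPM in E0771-Res2, 39.7 and 12.7 in replicates 1 and 3 of E0771-Res1 and 58.7 in 1 parental mouse. Lymphoid, mixed and other cells were not tested between lines. Lymphoid cells were at 48.4 to 77.0 CPM in E0771-Res2, 27.3 to 36.4 in E0771-Res1 and 19.7 to 36.2 in parental mice. Mixed cells were at 98.4 to 115 CPM in E0771-Res2 and 40.7 to 81.1 in E0771-Res1. The call over all kept cells was lost when any mouse other than E0771-Res1 replicate 1 and E0771-Res2 replicate 2 was left out, with an adjusted p of 0.0726 without parental replicate 1, 0.0722 without parental replicate 3, 0.0947 without E0771-Res1 replicate 2, 0.102 without E0771-Res1 replicate 3, 0.136 without E0771-Res2 replicate 1 and 0.165 without E0771-Res2 replicate 3, and log2 values of 0.40 to 0.53.

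**Figure D5:**
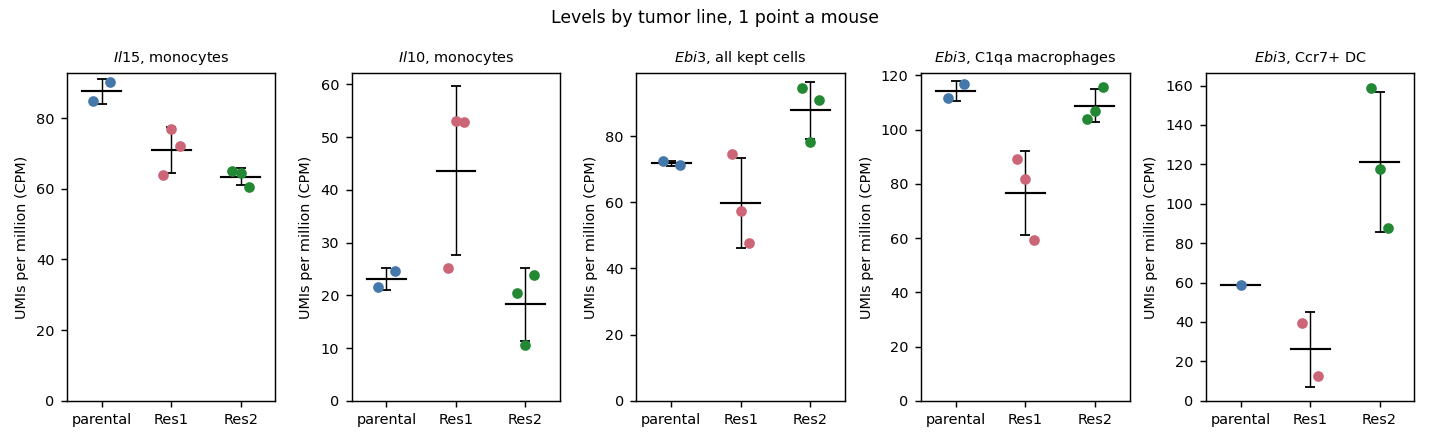
Levels in CPM by tumor line for the members called between lines and for Ebi3 in 2 gates where it did not pass; 1 point a mouse with at least 10 cells, bars the mean and SD. Il15 in monocytes is highest in both parental mice (84.9 and 90.1), and Ebi3 over all kept cells is higher in the 3 mice of E0771-Res2 than in the 3 of E0771-Res1.

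The Il12b and Il15ra messages of Ccr7+ dendritic cells gave no call between lines, in a fit where the lone parental mouse is assumed to vary like the other lines. Il12b was at 331 CPM in the parental mouse, at 175 and 6.36 in E0771-Res1 and at 235, 253 and 154 in E0771-Res2, with a log2 difference of -1.50 ± 0.56 for E0771-Res1 against parental (edgeR adjusted p 0.859). The other parental mouse, left out with 7 Ccr7+ cells, had 77 UMIs in 3 of them. Il15ra was at 122 CPM in the parental mouse, at 127 and 115 in E0771-Res1 and at 120, 122 and 87.9 in E0771-Res2. Its log2 difference between E0771-Res2 and parental was -0.10 ± 0.35. Il23a in monocytes, on 52 UMIs, was lower in E0771-Res2 than in E0771-Res1 by a log2 of -1.61 ± 0.53 that did not pass (adjusted p 0.0960).

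The receptors and signalling genes of these cytokines, a list of 22, were more often higher than lower in lymphoid cells. Against monocytes 19 of 21 tested passed, 13 higher and 6 lower, where 64.7% of all genes did. Among the 13, Il27ra passed the filter on low counts only through lymphoid cells, so its test adds no support for its direction. Higher were receptor chains for IL-12 and IL-23 (Il12rb1, log2 2.97 ± 0.29, and Il12rb2, 2.30 ± 0.20), for IL-27 (Il27ra, 4.74 ± 0.26) and for IL-15 (Il2rb, 5.27 ± 0.13, and Il2rg, 0.65 ± 0.08), with Stat4, which IL-12 activates (3.06 ± 0.13), and Cish, a feedback inhibitor induced through STAT5 (1.79 ± 0.15). Lower were Il6ra (-1.82 ± 0.14), Il6st, the shared IL-6 and IL-27 receptor chain (-0.74 ± 0.16), Il10ra (-0.90 ± 0.09), Il10rb (-1.03 ± 0.09), Jak2 (-0.55 ± 0.11) and Socs3, a feedback inhibitor of IL-6 signalling (-1.42 ± 0.11). In Ccr7+ against Cd209a+ dendritic cells 8 of 15 passed (50.6% of all genes), 6 higher, among them Stat4 (4.18 ± 0.22), Socs1 (2.09 ± 0.30), Stat3 (1.60 ± 0.16), Jak2 (1.10 ± 0.14) and Il6st (0.89 ± 0.35), and 2 lower, Il6ra (-2.43 ± 0.33) and Socs3 (-1.46 ± 0.21). Stat4, Socs1 and Il6st were too low in Cd209a+ cells to be tested between lines there, and Il6ra in Ccr7+ cells. They may have passed the filter on low counts only through the higher gate, so their tests are not read as support for the direction. In macrophages against monocytes 16 of 20 passed (53.6% of all genes), 15 lower, among them Jak2 (-1.04 ± 0.06) and Il6ra (-0.60 ± 0.06), and 1 higher, Il10rb (0.33 ± 0.05). In Cd209a+ dendritic cells against monocytes 8 of 19 passed (21.9% of all genes), 4 in each direction, with Stat4 (1.51 ± 0.33) the most raised and Il10rb (-1.10 ± 0.17) the most reduced.

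Across lines, the genes of that list that passed were all lower in E0771-Res2. In monocytes 6 of 20 fell against parental tumors (6.21% of all genes passed, in either direction), among them Cish (-1.10 ± 0.17, adjusted p 0.00185), Jak2 (-0.69 ± 0.12, 0.00313), Socs3 (-0.44 ± 0.10, 0.0138), Stat3 (-0.42 ± 0.10, 0.0186) and Il6ra (-0.40 ± 0.11, 0.0394). In macrophages 4 of 18 fell (1.87% of all genes passed), Cish (-1.46 ± 0.31), Socs1 (-1.13 ± 0.27), Jak2 (-0.73 ± 0.17) and Socs3 (-0.64 ± 0.13). These counts rested on both parental mice: without parental replicate 1 or 3 they were 1 and 2 in monocytes, 0 and 0 in macrophages and 0 and 0 over all kept cells, where 6 of 21 fell (4.35% of all genes passed). Leaving out E0771-Res2 replicate 1, 2 or 3 gave 3, 6 and 4 in monocytes, 0, 1 and 0 in macrophages and 3, 7 and 3 over all kept cells. Cish in monocytes was called in all 8 fits that left out 1 mouse. Il2rb (-0.58 ± 0.14), mainly a lymphoid message, was among those that fell over all kept cells, where lymphoid cells were 7.93 to 11.1% of kept cells in parental and 5.16 to 9.78% in E0771-Res2 mice, and the part of that share in the fall was not tested. Against E0771-Res1, Cish and Socs3 fell in monocytes (-1.01 ± 0.15 and -0.71 ± 0.09) and macrophages (-1.16 ± 0.27 and -0.73 ± 0.11), and Jak2 in monocytes (-0.44 ± 0.11). With each mouse left out in turn, Socs3 in both gates and Cish in monocytes kept the call in 8 of 8 fits, Jak2 in 5 and Cish in macrophages in 1. Between E0771-Res1 and parental tumors none passed in these 3 sets of cells by edgeR, with 4 of 21, 7 of 18 and 5 of 20 at an unadjusted p under 0.05 over all kept cells, macrophages and monocytes.

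The genes whose log2 CPM ran most like each member were sought over 38 sums of gate and mouse and 8075 genes, as a description, since sums of a mouse share a library and those of a gate share a cell type. Closest to Il12b were Capsl (Pearson r 0.913), Lad1 (0.904) and Zfand6 (0.895), and closest to Il15ra were Castor1 (0.918), Adap1 (0.887) and Fam32a (0.865). Il15 ran most like Usp12 (0.885), Riok3 (0.816) and Resf1 (0.793). Il10 was nearest to Tlr4 (0.860), the receptor for lipopolysaccharide, then Cmklr1 (0.818) and 1700017B05Rik (0.814). For Il27 they were Ube2a (0.768), Acod1 (0.754), the itaconate-producing enzyme of activated macrophages, and Tlr7 (0.753). Ebi3 was near Stx4a (0.838) and Nectin4 (0.757). Il6 had the loosest matches (Ier5 0.697, Sowahc 0.697 and Ube2l3 0.694), and Il12a and Il23a had too few UMIs for this measure.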

How the data were processed

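CD45+ cells of 8 tumors (2 parental, 3 E0771-Res1, 3 E0771-Res2) were tagged with CellPlex oligos, pooled and sequenced as 3' v3.1 libraries. The authors deposited 1 matrix of raw UMI counts per mouse, made with Cell Ranger 6.1.2 (file headers) on mm10; Seurat is also named in the submitters' processing notes. How tags were assigned was not given in the sources used here, and 96.9 to 99.9% of cells per mouse had their leading tag in common.

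Cells with 500 to 6000 genes and under 10% mitochondrial UMIs were kept. Mitochondrial, ribosomal protein and Gm genes (20.4% of UMIs) were left out of sums and CPM, as 23633 genes were used. Gates on raw UMIs, read in this order, were: mixed (lymphoid sum of Cd3d, Cd3e, Cd3g, Cd79a, Ms4a1, Ncr1 and Klrb1c of 2 or more, with C1qa of 10 or more or Csf1r of 2 or more), lymphoid (that sum of 2 or more), macrophages (C1qa of 10 or more), Ccr7+ (Ccr7 and Fscn1 of 1 or more each), Xcr1+ (Xcr1 and Clec9a sum of 2 or more), Cd209a+ (2 or more) and monocytes (Ly6c2, Plac8, Vcan and Chil3 sum of 3 or more). No doublet caller was run; mixed cells were left out of all gates, and the 5% of cells with most UMIs were left out as an alternative.

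Counts were summed per mouse and gate (at least 10 cells), TMM-scaled, filtered with filterByExpr and tested, two-sided, with edgeR 4.0.16 (R 4.3.3; quasi-likelihood test) over all genes, with mouse as a block between gates and the 3 lines in 1 fit otherwise; scripts were tested on simulated data. Intervals and floors (3 counts) cover counting error only and Clopper-Pearson or exact Poisson intervals are at 95%. Thinning drew 2000 UMIs a cell and left out shallower cells, 291 of 5305 monocytes and 49 of 875 lymphoid cells among them. The labels number a separate mouse for each sample, and no 2 files agreed within counting noise (chi-square over its degrees of freedom, 2.66 to 12.5). Replicate numbers of different lines belong to different mice. Alternatives were DESeq2 1.42.0, no filter on low counts, all deposited cells, all genes, C1qa thresholds of 5 and 20, each mouse left out and the block added or dropped. Promoter windows came from RefSeq (GRCm38.p6) and gene positions from GENCODE M21.

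Genes named are the 9 members, those of 22 receptor and signalling genes that passed in a comparison, and the 3 genes with the highest Pearson r of log2 CPM to each member. The 9 genes, the gates and that list were chosen with earlier results of these data known, so no p-value is given over a list. Results for 2 genes under these rules are not reported here.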

Additional observations from a re-analysis of the deposited data

Results flagged for a closer look

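The Ebi3 difference between Ccr7+ and Cd209a+ dendritic cells had opposite signs in the resistant lines, and this was looked at for that reason. The Ccr7+ level minus the Cd209a+ level averaged 66.6 CPM in the 3 mice of E0771-Res2 and -20.6 CPM in the 2 mice of E0771-Res1 with at least 10 cells in both gates, a gap of -87.2 CPM for E0771-Res1 against E0771-Res2. Every mouse went the way of its line, though in E0771-Res2 replicate 3 the Ebi3 levels were as near as 87.9 and 87.1 CPM. The 6 mice with at least 10 cells in both gates gave 166 UMIs, which include those of 1 parental mouse, so the resistant lines rest on fewer. The difference between the lines was not tested.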

How the results depend on the processing

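Of 24 member results that passed, recomputed 423 times under the alternatives, 400 kept direction and call, 23 kept direction only and 0 turned. Among the 24 are Il12b between gates, Il15ra between the dendritic gates and Il10 in Cd209a+ cells against monocytes. These passed the filter on low counts only through the higher gate, so their kept direction adds no support. For 17 of the 24 every alternative run that tested the gene kept both. Runs in which a gene fell out of the test were not counted. Between gates Il12b was thus recomputed in 17 runs for Ccr7+ against Cd209a+ cells. It had 14 runs for macrophages and 17 for lymphoid cells against monocytes, where the other members called had 18. The number of members called was within 1.5 times of the value reported, except in comparisons between lines. Without the filter on low counts it was 2 over all kept cells and 3 in monocytes for E0771-Res2 against E0771-Res1, and 1 each in macrophages for both comparisons with E0771-Res1, in monocytes for E0771-Res1 against parental and in Ccr7+ dendritic cells for both comparisons with E0771-Res1. DESeq2 called 0 in monocytes for E0771-Res2 against E0771-Res1. With Ccr7+ dendritic cells of these 2 lines, 1 member (Ebi3) was called with C1qa of 20 or more, with C1qa of 1 or more per 1000 UMIs and with the replicate block. The threshold per 1000 UMIs and sums of any number of cells were added after seeing the data. Leaving out 1 mouse at a time, the count ran from 3 to 4 for Ccr7+ against Cd209a+ dendritic cells, 4 to 5 for Cd209a+ dendritic cells, 5 to 7 for macrophages and 6 to 7 for lymphoid cells against monocytes. It ran from 0 to 2 over all kept cells, 0 to 1 in macrophages, 0 to 3 in monocytes and 0 to 1 in Ccr7+ dendritic cells for E0771-Res2 against E0771-Res1, 0 to 1 in monocytes for E0771-Res2 against parental and 0 to 1 in Ccr7+ dendritic cells for E0771-Res1 against parental; the fit without parental replicate 1 has no parental Ccr7+ sum. Between lines, the counts above the reported one came without E0771-Res1 replicate 1. Beyond the fewer mice or other genes tested, the cause was not tested. Counts over all genes moved more. For E0771-Res2 against parental they ran from 47 (without parental replicate 1) to 1023 in monocytes, where 617 was reported, from 29 (without parental replicate 3) to 977 over all kept cells (492) and from 21 (without parental replicate 3) to 565 in macrophages (170). For E0771-Res2 against E0771-Res1 they ran from 203 to 921 (541), 104 to 928 (475) and 90 to 593 (241) in the same order, lowest without E0771-Res2 replicate 3 and, in each of the 6, highest without the filter.

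Replicate numbers did not pair mice across lines (correlations of same-numbered mice from -0.04 to 0.06), and with the replicate block the counts of members called over all kept cells, in macrophages and in monocytes were unchanged, at 1 where 1 was called and 0 elsewhere. Between gates, dropping mouse as a block (no replicate block) left 2, 4, 5 and 5 members called in place of 3, 5, 7 and 6. For Ccr7+ against Cd209a+ dendritic cells, Il12b was not among the genes tested in that run. Thinning to 2000 UMIs lowered 38 of 45 shares beyond their counting interval. Depth limits Il12a, Il23a and every member in Cd209a+ dendritic cells between lines.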
